A study of Mus musculus with 16 samples.

Results

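Acetylation of lysine 27 on histone H3 (H3K27ac) usually forms short peaks, and the subject here is its opposite end, the stretches where a single called peak ran for 10 kb or more. Every peak of at least 10000 bp in any of 8 peak lists from mouse small-intestinal epithelium was taken, and those that overlapped or touched were merged into domains. This gave 431 very broad domains, each inside its own region, of 79482 merged peak regions in all. The domains are numbered from the longest (domain 1) to the shortest (domain 431), and all positions are on the mouse genome build mm9.

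H3K27ac is laid down by the acetyltransferases p300 and CBP and marks active enhancers and promoters. Unusually long stretches of it, known as stretch enhancers or super-enhancers when they join several enhancers, are often found near genes that define a cell type, while other long stretches span the bodies of highly active genes. The gut epithelium begins as a proliferating tube of endoderm, villi then form, and in the adult Lgr5-positive stem cells at the crypt base renew the villus, whose most numerous cells are the absorptive enterocytes.

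The libraries came from 4 groups of 2 biological duplicates, all of a mixed C57BL/6 and CD1 background. The embryonic groups were small-intestinal epithelium at the embryonic days E12.5 and E14.5, sorted as EpCAM+ CD31- CD45- DAPI- cells (epithelial, not endothelial, not leukocyte, alive). The labels do not state the sex of the embryos. The adult groups came from male mice at postnatal day 60 that carried the Lgr5EGFP-Cre-ERT allele, a reporter that puts GFP under the Lgr5 locus. Intestinal stem cells (ISC) were sorted for high GFP, and enterocytes (ENT) by the same EpCAM+ CD31- CD45- DAPI- gate as the embryos. That gate takes epithelial cells in general and holds no enterocyte marker, so other epithelial cells can be among the ENT. The labels name that allele for the adults only, so age, allele and sex can differ together between embryo and adult. The cell identities could not be checked against marker genes, because gene annotation on mm9 was not used here. In a sorted population, fewer cells carrying the mark and less of it per cell cannot be told apart.

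Sequencing gave 34.6 to 54.6 M tags per ChIP library and 35.0 to 38.8 M per input. Total covered length ran from 38.8 Mb in both ENT libraries to 76.1 Mb in ISC replicate 2, and the range in the other 5 libraries was 43.6 to 65.1 Mb. ISC replicate 2 stood apart in what concerns the domains: it had 342 peaks of 10 kb or more, against 85 in its replicate with a similar number of tags (42.1 against 40.4 M). The remaining libraries had 20 and 81 at E12.5, 116 and 78 at E14.5, and 53 and 41 in ENT. The mean number of such peaks was therefore 50.5 ± 43.1 at E12.5, 97.0 ± 26.9 at E14.5, 213.5 ± 182 in ISC and 47.0 ± 8.49 in ENT (SD, n = 2). Because the domains are chosen by peak length in all 8 lists, their counts and lengths by group are given as a description, with no test, and are repeated on the 241 domains built without ISC replicate 2.

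The domains were a thin upper tail of the lists. Their median length was 12.3 kb (quartiles 10.9 and 14.8 kb), the shortest had 10008 bp and the longest 45.8 kb. Together they spanned 5.89 Mb, with 194 of them under 12 kb and 32 of at least 20 kb. The minimum cut through a continuous range: in every library the longest peak below it had 9898 to 9998 bp and the shortest above it 10006 to 10105 bp. Between 9 and 10 kb there were 34 peaks in ISC replicate 1 and 137 in ISC replicate 2, against 31 and 89 between 10 and 11 kb. In the other 6 libraries the numbers were 6 to 56 just below and 7 to 30 just above. The peaks of 10 kb or more made up 0.0428 to 0.660% of the peaks of a library and 0.599 to 6.18% of its covered length.

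These long peaks were also tall. Within each list the median long peak ranked at the 94.7th to 98.7th percentile of pileup, the authors' read coverage at the summit. The summit lay in the middle 50% of the peak in 43.4 to 60.3% of cases, so in many the tallest point was nearer to an edge. In a library that had no long peak at a domain, the highest peak there still had a median percentile of 84.1 to 91.4, compared with 53.2 to 59.9 for regions without a domain. Such domains had their highest peak in the top 10% of the list in 35.8 to 54.0% of cases, against 10.6 to 14.1% of regions without a domain. A long region holds more peaks to take a highest value from, and this was not corrected for.

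Most domains passed the minimum in 1 library only. This was true of 248 domains, of which 191 rested on ISC replicate 2, 24 on E12.5 replicate 2, 14 on E14.5 replicate 1, 9 on ENT replicate 1, 5 each on E14.5 replicate 2 and ENT replicate 2, and 0 on E12.5 replicate 1 or ISC replicate 1. The other 183 were broad in at least 2 libraries, 3 of them in all 8. These 3 were domain 16 on chr2:164246255-164269793, domain 65 on chr5:65194490-65211676 and domain 91 on chr18:11046875-11062238, each singled out after its values were seen. Both libraries of a group had a long peak at 19 domains at E12.5, 63 at E14.5, 84 in ISC and 26 in ENT. Counting either library of a group, 86 domains were broad in the embryo and in the adult, 71 in the embryo alone and 274 in the adult alone. Without ISC replicate 2 this order turned, with 44 in both, 113 in the embryo alone and 84 in the adult alone. The adult then had 1 choosing list fewer than the embryo, which lowers the adult count by construction.

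A domain that missed the minimum in a replicate was usually broken up there, not absent. All 248 domains with a long peak in 1 library were at least 50% covered in the other library of that group. At the 191 domains that rested on ISC replicate 2, peaks of ISC replicate 1 covered a median of 87.3% (lowest 68.4%). Their longest ISC replicate 1 peak had a median of 6.15 kb, and 7 of the 191 were in 1 piece. Over all domains with any peak, ISC replicate 2 had a median of 1 peak per domain and 78.0% in a single piece. The other 7 libraries had medians of 3 or 4 peaks per domain and 8.82 to 20.6% in a single piece.

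**Figure D1:**
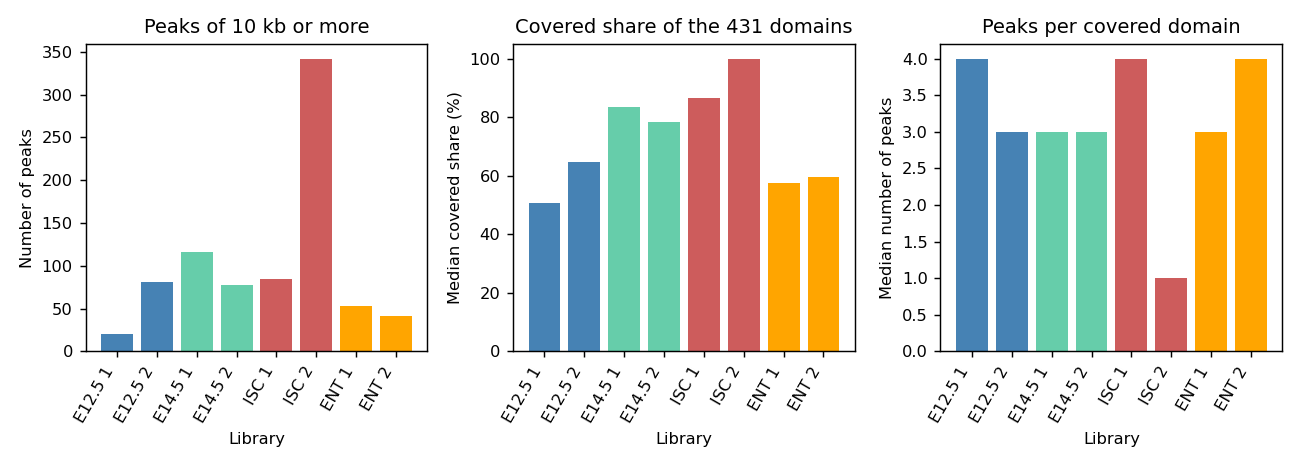
Bars give, for each of the 8 libraries (x axis, coloured by group), the number of peaks of 10 kb or more, the median share in percent of the 431 domains covered by peaks of any size, and the median number of peaks per covered domain. ISC replicate 2 has 342 long peaks and a median of 1 peak per domain, while the other libraries have 20 to 116 long peaks and medians of 3 or 4.

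The long peaks of 1 library were then read in libraries that took no part in choosing them. In the replicate, the median share of a domain covered was 96.9% ± 3.86 (SD over the 8 directions), from 89.6% for the domains of ISC replicate 2 read in replicate 1 to 100% for those of E12.5 replicate 1 and ISC replicate 1. Every one of these domains was at least 50% covered in the replicate, in each of the 8 directions. In each group the list with more long peaks gave the lower share. The number of domains broad in both libraries was the same in both directions of a pair. Of the 342 domains of ISC replicate 2, 85 were broad in replicate 1, whereas all 85 of ISC replicate 1 were broad in replicate 2. Likewise 19 of the 81 from E12.5 replicate 2 were broad in replicate 1, and 19 of the 20 from replicate 1 were broad in replicate 2. At E14.5 the numbers were 64 of 116 and 64 of 78, and in ENT 25 of 53 and 25 of 41.

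Across groups the shares followed the choosing library. Domains chosen in either ENT library were covered to medians of 96.4 to 100% in ISC and 91.4 to 93.8% at E14.5, but 50.8 to 73.1% at E12.5. Domains chosen in E12.5 replicate 2 were covered to 98.6 and 95.5% in the E14.5 libraries, 73.0 and 89.4% in the ISC libraries, and 42.7 and 47.6% in ENT. Those of ISC replicate 1 were covered to 94.1 and 92.2% at E14.5, 80.7 and 83.8% in ENT, and 52.5 and 70.6% at E12.5. E12.5 and ENT thus had the lowest shares of each other's broad domains. The lists differ in total covered length, and these shares were not adjusted for it.

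**Figure D2:**
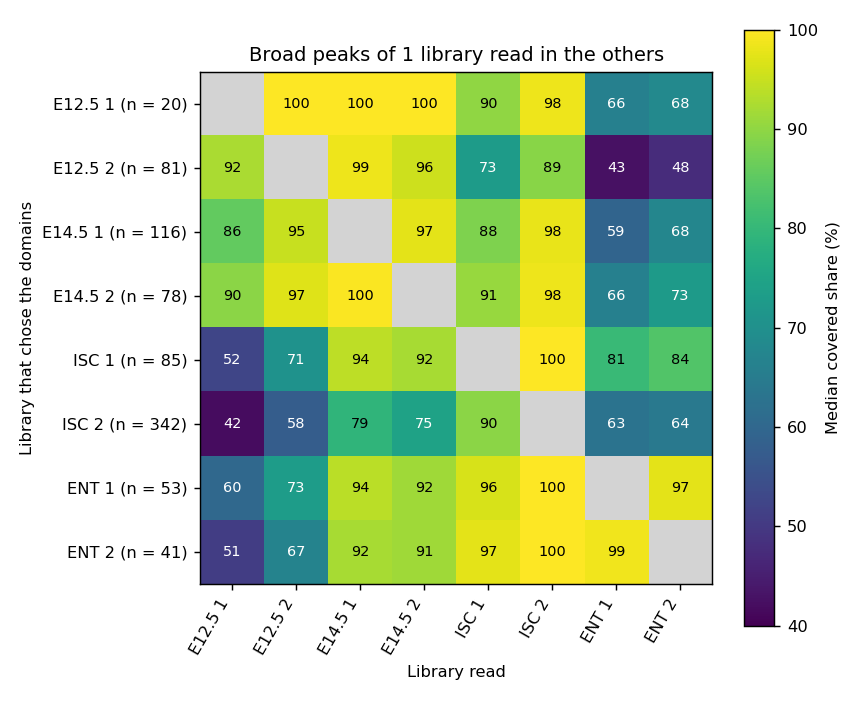
Each cell gives the median share (%) of the domains chosen in the library of its row, n in brackets, that peaks of the library of its column cover, with grey where both are the same library. Replicates lie at 90 to 100%, and the lowest cells are those of E12.5 replicate 2 in ENT and of ISC replicate 2 in E12.5 replicate 1.

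Over all 431 domains, the covered share was highest at E14.5 and in ISC. The median domain was covered to 50.6 and 64.6% at E12.5, 83.6 and 78.3% at E14.5, 86.5 and 100% in ISC, and 57.5 and 59.5% in ENT. The group means of these library medians were 57.6% ± 9.85, 80.9% ± 3.75, 93.3% ± 9.51 and 58.5% ± 1.42 (SD, n = 2). The E14.5 and ISC libraries were all above those of E12.5 and ENT, and the last 2 groups overlapped. On the 241 domains built without ISC replicate 2 the medians were 73.1 and 89.3%, 97.2 and 93.0%, 88.4 and 98.2%, and 66.4 and 70.7% in the same order. There the E14.5 and ISC libraries overlapped, as did those of E12.5 and ISC. The covered length inside the 431 domains summed to 2.94 and 3.57 Mb at E12.5, 4.34 and 4.08 Mb at E14.5, 4.66 and 5.36 Mb in ISC, and 3.11 and 3.25 Mb in ENT. As a share of everything a library covered, this was 6.76 and 5.95%, 6.67 and 7.17%, 9.11 and 7.05%, and 8.03 and 8.38%, so the ENT libraries, low in absolute length, were not low on this scale.

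Few domains were bare in any group. At least 1 peak was present in all 8 libraries at 370 domains (85.8%), against 12282 (15.5%) of the 79482 merged regions, which are shorter. A group was counted as having a domain when peaks covered at least 50% of it in both libraries, and as lacking it when neither library had a peak there. By this count E12.5 had 217 and lacked 13, E14.5 had 327 and lacked 0, ISC had 385 and lacked 9, and ENT had 234 and lacked 28. All 4 groups had 110 domains. Another 5 were present in both embryonic groups and absent from both adult ones, and 0 showed the reverse. Domain 337 was the only one with E12.5, E14.5 and ISC present and ENT absent. In every other domain at least 1 group was in between. Without ISC replicate 2 the embryonic count was again 5, the reverse count 0, and all 4 groups had 87 of 241.

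**Figure D3:**
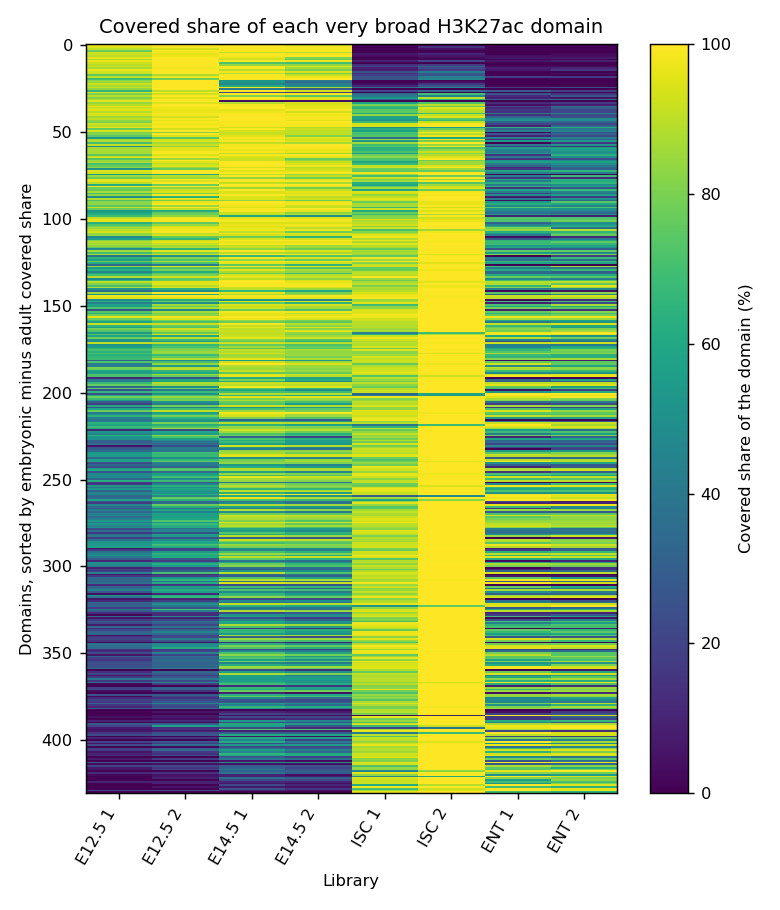
Rows are the 431 domains sorted by the mean embryonic minus the mean adult covered share, columns are the 8 libraries, and colour is the share (%) of each domain covered by peaks. In ISC dark cells fill the top rows, yellow cells fill ISC replicate 2 below them, and ENT cells are dark in rows scattered throughout.

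The group with the longest mean coverage was ISC at 278 domains, E14.5 at 95, ENT at 30 and E12.5 at 28. The shortest was E12.5 at 210, ENT at 199, ISC at 17 and E14.5 at 5. Without ISC replicate 2 choosing, the longest was E14.5 at 93 of 241, ISC at 83, ENT at 36 and E12.5 at 29, so the first place of ISC turned on that library. Both E14.5 libraries exceeded both E12.5 libraries at 307 domains, and this also held for 30.3% of all 53123 regions that had a peak in at least 2 libraries. The reverse held at 24 domains (15.9% of all regions). Both ISC libraries exceeded both E14.5 libraries at 237 domains (24.9% of regions), and fell below them at 88 (29.2%). Both ISC libraries exceeded both ENT libraries at 331 domains (42.2%), and both ENT libraries exceeded both ISC libraries at 22 (11.0%). All these groups helped to choose the domains, so nothing is read from these counts.

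The longest domain was covered at every stage. Domain 1, on chr14:63845742-63891525, was covered by 43.9 and 45.4 kb of peaks in E12.5, 45.3 and 44.9 kb in E14.5, 40.3 and 44.0 kb in ISC, and 33.0 and 35.9 kb in ENT. The group means were 44.7, 45.1, 42.1 and 34.4 kb, and both ENT libraries lay below the other 6. Domain 4, on chr15:77639662-77672736, had 25.3 and 29.1 kb, 30.2 and 28.4 kb, 28.8 and 33.1 kb, and 20.0 and 17.1 kb in the same order of groups. Here too ENT was lowest and the other 3 groups overlapped. Domain 9, on chr8:124822535-124848804, had 22.3 and 23.2 kb in E12.5, 25.7 and 25.1 kb in E14.5, 22.7 and 26.2 kb in ISC, and 14.4 and 19.2 kb in ENT, again the lowest. These were the 3 longest domains that all 4 groups had.

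Domains 2 and 3 were longer in both ISC libraries than in any embryonic library. Domain 2, on chr6:94613096-94653292, had 9.44 and 12.8 kb in E12.5, 25.1 and 22.4 kb in E14.5 and 39.1 and 40.2 kb in ISC, and 4.63 and 11.3 kb in ENT. Its ISC peaks spanned nearly all of it, and the E12.5 and ENT libraries overlapped. Domain 3, on chr7:30029379-30068336, had 13.3 and 15.0 kb in E12.5, 27.6 and 22.8 kb in E14.5, 36.7 and 39.0 kb in ISC, and 27.5 and 27.2 kb in ENT. Here the ENT level lay within that of E14.5 and above E12.5. Domain 10, on chr11:97658959-97684952, was among the longest in ENT, with 23.9 and 23.7 kb. It had 16.7 and 20.8 kb in E12.5, 23.3 and 23.4 kb in E14.5, and 23.1 and 26.0 kb in ISC, and E12.5 alone lay below the rest.

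The longest domains that rested on a single long peak were all long in ISC replicate 2. Domain 8, on chr2:103118389-103144977, had 24.8 kb in ISC replicate 1 and 26.6 kb in replicate 2, 8.41 and 12.3 kb in E12.5, 14.7 and 14.1 kb in E14.5, and 0.743 and 2.18 kb in ENT. The ISC replicates were thus close in covered length, although only 1 was in a long peak. Domain 15, on chr7:16615399-16639083, had 17.2 and 23.7 kb in ISC, 11.3 and 11.4 kb in ENT, 4.87 and 5.29 kb in E12.5, and 5.76 and 5.07 kb in E14.5. Both adult groups lay above both embryonic ones. Domain 24, on chr4:149941418-149962758, had 11.2 and 14.2 kb in E12.5, 17.4 and 15.5 kb in E14.5, 19.6 and 21.3 kb in ISC, and 9.36 and 9.94 kb in ENT.

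Embryonic domains without any adult peak were few and mostly short. Domain 6, on chr7:149737366-149765568, was the longest, with 27.01 and 28.2 kb in E12.5, 27.5 and 27.1 kb in E14.5, and 0 in all 4 adult libraries. Domain 247, on chr11:18912579-18924507, had 11.0 and 11.9 kb in E12.5 and 8.66 and 8.31 kb in E14.5. Domain 316, on chr6:49168195-49179161, had 10.7 and 11.0 kb in E12.5 and 10.7 and 10.1 kb in E14.5. Both had 0 in the adult libraries. Domain 337, on chr2:32746585-32757383, had 5.80 and 6.55 kb in E12.5, 9.88 and 9.15 kb in E14.5, 9.12 and 10.8 kb in ISC, and 0 in both ENT libraries.

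**Figure D4:**
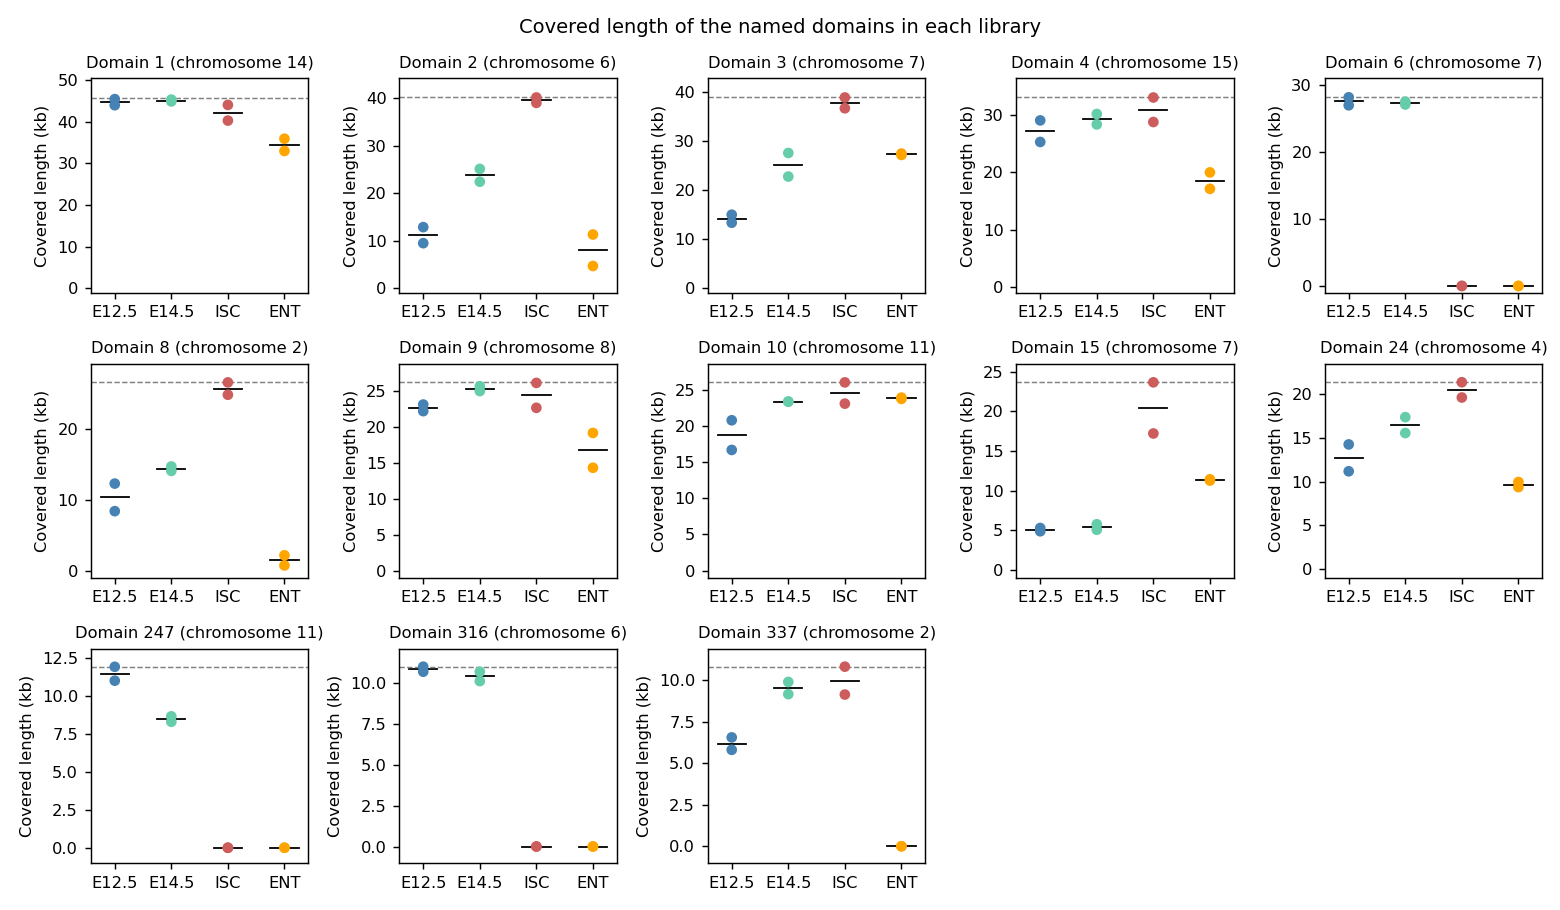
Each panel is 1 named domain, with the covered length (kb, y axis from near 0) in each of the 2 libraries of a group as points, the group mean as a black bar and the length of the domain as a dashed line. Domains 6, 247 and 316 are at 0 in all adult libraries, domain 337 is at 0 in ENT alone, and domain 2 is longest in ISC.

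A few domains belonged nearly to 1 group, and the following 4 were singled out after their values were seen. Domain 110, on chr7:6801227-6815970, had 14.0 and 14.7 kb in E12.5, 0.488 and 0.583 kb in E14.5 and 0 in the adult libraries. Domain 58, on chr14:80398690-80416407, had 15.7 and 17.7 kb in ISC, 0.245 kb in E14.5 replicate 2 and 0 in the other 5 libraries. Domain 354, on chr14:121896398-121907058, had 10.7 and 9.80 kb in ENT and at most 0.883 kb in any other library. Domain 52, on chr9:46035330-46053351, the longest of the 19 domains broad in ENT alone, had 18.0 and 17.8 kb in ENT. Unlike domain 354 it had 15.9 and 16.0 kb in E14.5, 4.54 and 9.07 kb in E12.5, and 5.76 and 10.5 kb in ISC. Broad in 1 group thus covered both near-exclusive domains and domains that other groups carried in smaller pieces.

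Broad domains lay in acetylated neighbourhoods. Within 50 kb on either side, outside the domain itself, peaks covered a median of 7.55 and 10.5 kb in E12.5, 13.0 and 11.2 kb in E14.5, 11.4 and 17.0 kb in ISC, and 7.05 and 7.29 kb in ENT. Around regions without a domain the medians were 3.49 and 5.10 kb, 5.83 and 5.00 kb, 4.35 and 7.07 kb, and 2.68 and 2.85 kb. All 8 libraries were higher around the domains, which is a description, since flank coverage was not matched for peak density along the chromosome.

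Some domains followed one another. Neighbouring domains lay within 100 kb of each other in 76 cases and within 20 kb in 36. These formed 64 groups of neighbours with 140 domains, 9 of them with at least 3. The largest had 5 domains on chr8:129106354-129358742, and peaks covered 36.8 and 42.6 kb of those domains in E12.5, 56.9 and 54.8 kb in E14.5, 57.3 and 61.8 kb in ISC, and 40.5 and 44.4 kb in ENT. A group of 4 lay on chr2:163351321-163472164, with 21.1 and 30.8 kb in E12.5, 41.9 and 40.3 kb in E14.5, 50.4 and 54.5 kb in ISC, and 35.2 and 35.5 kb in ENT. In both, the ISC libraries were above all others inside the domains. The E12.5 and ENT libraries overlapped on chromosome 8, while on chromosome 2 E12.5 was lowest. Over the whole chromosome 8 stretch, gaps between domains included, peaks covered 83.0 and 76.3 kb in E14.5 and 68.4 and 94.4 kb in ISC. There the E14.5 and ISC libraries overlapped.

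Within 3 further groups, singled out after their values were seen, every domain was higher in the same group or stage. On chr10:44162682-44250603, 3 domains, each longer in all embryonic than in all adult libraries, held 31.6 and 39.0 kb in E12.5 and 41.3 and 40.0 kb in E14.5, against 4.46 and 7.39 kb in ISC and 5.31 and 3.88 kb in ENT. On chr7:150237623-150313029, 3 domains, each longest in ISC, held 27.7 and 33.0 kb in ISC and 2.42 to 10.2 kb in the other 6 libraries. On chr9:44861584-45014496, 3 domains, each longest in ISC, held 34.1 and 37.3 kb in ISC, 11.3 and 11.7 kb in ENT, 11.9 and 12.2 kb in E14.5, and 2.55 and 5.41 kb in E12.5. The order of E14.5 and ENT was not the same in these last 3: domain 84 was longer in ENT, and domains 292 and 369 at E14.5. By chromosome, 11 had the most domains (49, or 8.56 per 1000 merged regions), with chromosome 7 next (42, or 8.49). Chromosome 3 had 10 (2.50 per 1000) and the X chromosome 3 (1.77 per 1000).

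A change can be tested where neither group compared chose the domains. For each comparison the domains were rebuilt from the other 2 groups' lists, and the merged region that held each was tested with limma among all 53123 regions with a peak in at least 2 libraries. The value was log2 of the covered length plus 500 bp, after scaling by the total covered length of the library. Tested regions without a peak in either group compared have a difference of 0. They draw the median over all regions toward 0, and a fit of only the 2 groups compared leaves them out. A region was called at a Benjamini-Hochberg adjusted p under 0.05 over all regions. The 3 comparisons share libraries, so they are not independent of each other.

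Domains chosen in the adult were more often higher than lower at E14.5 against E12.5, the interval in which the embryonic epithelium moves toward villus formation. Of 360 regions, 97 were higher at E14.5 and 5 lower by limma, or 26.9 and 1.39%, compared with 13.8 and 11.3% of all regions tested. The median log2 difference was 0.22, against 0 over all regions, and 250 of the 360 lay above 0. In the fit of only the 2 groups compared the median was again 0.22, against -0.03 over all regions. The excess was not limited to the broadest class: of 1936 regions whose longest adult peak had 5 to 10 kb, 25.2% were higher and 1.5% lower. Without scaling the counts were 123 and 1 of 360, compared with 12.8 and 7.97% of all regions. With 1 library left out the median log2 difference was 0.18 to 0.24, against 0 over all regions. The number called higher fell most without E12.5 replicate 1, either E14.5 library or ISC replicate 2. Without ISC replicate 2 only 127 domains were chosen. Among all regions the share called higher also fell without E12.5 replicate 1 or either E14.5 library, but not without ISC replicate 2. Without E12.5 replicate 1 or either E14.5 library, the excess over all regions was smaller than in the main fit. Fewer regions were called lower without any 1 library other than ISC replicate 1.

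The 3 largest rises began from no or little coverage. Around domain 47, the region on chr11:86404154-86422689 had 0 and 0.329 kb in E12.5 and 4.23 and 4.64 kb in E14.5, before 13.2 and 18.5 kb in ISC and 8.43 and 4.97 kb in ENT. It rose by 2.81 on the log2 scale (SE 0.322, adjusted p = 0.00228, limma). Around domain 364, the region on chr16:21852495-21863256 had 0 in both E12.5 libraries, 3.28 and 3.43 kb in E14.5, 4.90 and 8.79 kb in ISC, and 10.4 and 10.6 kb in ENT (limma adjusted p = 0.000185). Around domain 123, the region on chr2:38384272-38398612 had 0 in both E12.5 libraries, 4.03 and 2.74 kb in E14.5, 13.5 and 14.3 kb in ISC, and 6.90 and 5.33 kb in ENT (limma adjusted p = 0.000572). In all 3 the E14.5 libraries lay between those of E12.5 and the longer of the adult groups. Choosing long adult peaks and then rises from E12.5 favours this order, so nothing is read from it.

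The 3 named falls were smaller. Around domain 187, the region on chr1:134211834-134225933 had 2.67 and 2.93 kb in E12.5, 1.12 and 0.528 kb in E14.5, 11.8 and 13.2 kb in ISC, and 13.8 and 12.8 kb in ENT. It fell by 1.53 from E12.5 to E14.5 (log2, SE 0.225, limma adjusted p = 0.00578), a call that was lost without E12.5 replicate 1. Around domain 283, the region on chr4:148271015-148285775 had 7.81 and 11.3 kb in E12.5 and 6.75 and 5.70 kb in E14.5 (limma adjusted p = 0.0134). Around domain 261, the region on chr14:80380274-80392048 had 4.47 and 6.10 kb in E12.5 and 3.71 and 3.37 kb in E14.5 (limma adjusted p = 0.0335). Neither of these 2 passed without scaling or when any 1 of the 4 embryonic libraries was left out, and domain 261 also failed without either ENT library. With the replicate number as a block, domain 261 was not called (limma adjusted p = 0.0508).

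Domains chosen at E12.5 and in ENT were more often lower than higher in ISC against E14.5. The median log2 difference changed sign, however, without E12.5 replicate 2 or without ISC replicate 2. Without E12.5 replicate 2 the balance of calls turned as well, to more regions higher than lower. Among all regions more were still lower there, so the direction rested on that choosing library. Of 139 regions, 13 were higher in ISC and 34 lower, or 9.35 and 24.5%, compared with 16.1 and 19.7% of all regions and with 15.4 and 22.1% of 1248 regions whose longest peak in the choosing lists had 5 to 10 kb. In either direction 33.8% of these regions were called, against 35.9% of all regions and 37.5% of the regions of 5 to 10 kb. The median log2 difference was -0.12, against 0 over all regions. In the fit of only the 2 groups compared it was again -0.12, against -0.09 over all regions, so the 2 medians were close. Without E12.5 replicate 2, which chose many of these domains, the median over 82 regions was 0.01, against -0.04 over all regions. Without ISC replicate 2 it was 0.07, against 0 over all regions. With any other library left out it was -0.29 to -0.05. Fewer regions were called higher without either E14.5 library, ISC replicate 1 or either ENT library. Among all regions the share called higher also fell without these E14.5 and ISC libraries, though less steeply for E14.5. It did not fall without either ENT library.

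The 3 named falls were in domains chosen through E12.5, and so long in the embryo by the rule. Around domain 6, described above, the region went from 27.5 and 27.1 kb in E14.5 to 0 in both ISC libraries (limma adjusted p = 7.94e-05). Around domain 18, the region on chr9:114449244-114475187 had 22.3 and 24.2 kb in E12.5, 25.2 and 24.9 kb in E14.5, 0.222 and 1.14 kb in ISC, and 0 in both ENT libraries (limma adjusted p = 0.000201). Around domain 316, the region had 10.7 and 10.1 kb in E14.5 and 0 in ISC (limma adjusted p = 7.94e-05).

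The 3 named rises were in domains chosen through ENT, since each domain here had to be broad at E12.5 or in ENT. Around domain 187, the region rose from 1.12 and 0.528 kb in E14.5 to 11.8 and 13.2 kb in ISC, by 3.24 on the log2 scale (SE 0.225, limma adjusted p = 0.000267). Around domain 426, the region on chr11:6124216-6135213 had 0.894 and 0.826 kb in E14.5, 4.81 and 6.02 kb in ISC, and 10.9 and 9.83 kb in ENT (limma adjusted p = 0.00655). Around domain 419, the region on chr19:5877298-5887383 had 0 in both E12.5 libraries, 2.15 and 1.11 kb in E14.5, 6.19 and 8.95 kb in ISC, and 10.1 and 9.61 kb in ENT (limma adjusted p = 0.000845). At domains 419 and 426 both ENT libraries were above both ISC libraries, which were above both of E14.5. Choosing long ENT peaks and then rises from E14.5 to ISC favours this order. The call at domain 426 was lost with 100 bp added in place of 500.

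Domains chosen in the embryo were called between ENT and ISC at a share near that of all regions in the main fit, but not under every setting. Of 157 regions, 22 were higher in ENT and 28 lower, so that 31.8% were called in either direction. This compares with the 36.2% of all regions (7724 higher and 11499, or 21.6%, lower of 53123) and the 44.4% of 1249 regions of 5 to 10 kb (16.6% higher and 27.8% lower). This split depended on the scaling: without it 1 of the 157 regions was higher and 78 lower, against 7.47 and 29.0% of all regions, and the median of all regions moved by -0.26. Fitting only the 2 groups compared gave 9 higher and 20 lower of 148, against 15.8 and 24.8% of all regions. The median log2 difference was 0.10, and 0 to 0.24 with 1 library left out, against 0 over all regions. In the fit of only the 2 groups compared it was 0.13, against -0.23 over all regions. The number called higher fell most without either E14.5 library, ISC replicate 2 or either ENT library. Among all regions the share called higher fell only slightly without either E14.5 library or ISC replicate 2. It fell more without either ENT library. Leaving out E14.5 replicate 1 or 2 also left fewer domains to test (121 and 146). The median was 0.24 without ISC replicate 1 and 0.15 without E12.5 replicate 2. In both cases the balance turned to more regions called higher than lower in ENT.

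**Figure D5:**
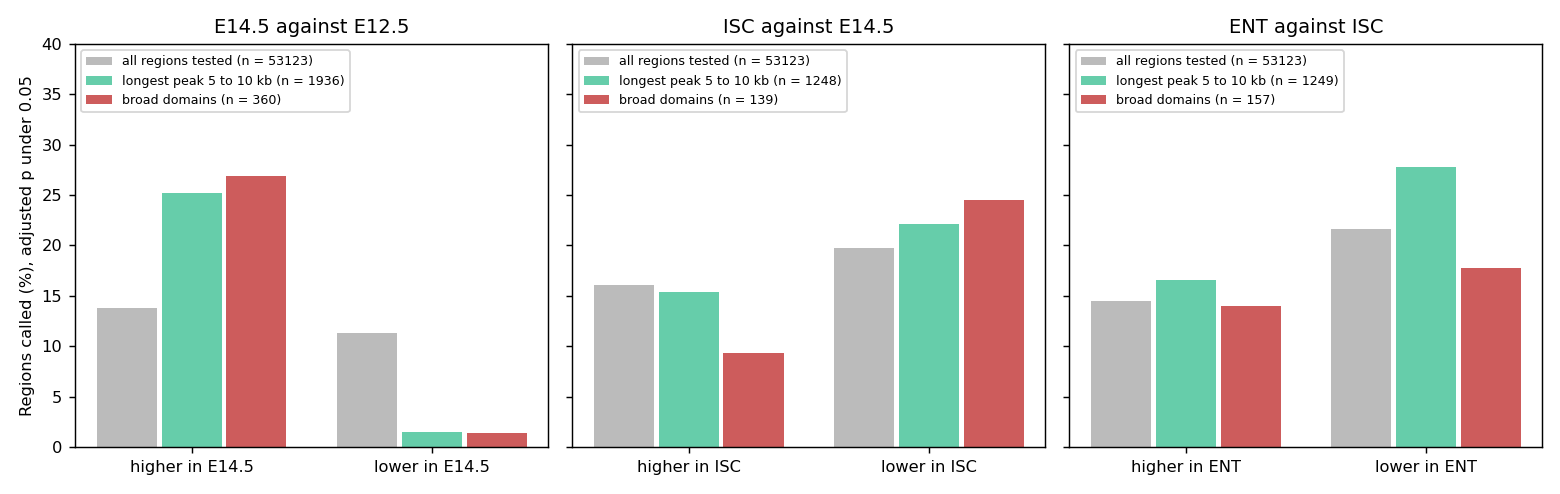
Bars give the share (%) of regions called higher or lower by limma (adjusted p under 0.05) in each of the 3 comparisons, for all 53123 regions, for regions whose longest peak in the choosing lists had 5 to 10 kb, and for regions with a broad domain chosen from the groups not compared. Broad domains differ from all regions most at E14.5 against E12.5, where 26.9% are higher and 1.39% lower, and regions of 5 to 10 kb do the same.

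The 3 named falls in ENT ended at no coverage, in domains long in the embryo by the rule that chose them. Around domain 94, the region on chr8:111245590-111260976 had 14.1 and 15.2 kb in E12.5, 15.0 and 14.4 kb in E14.5, 3.75 and 6.19 kb in ISC, and 0 in both ENT libraries (limma adjusted p = 7.25e-05). Around domain 386, the region on chr19:44365845-44376623 had 7.20 and 8.55 kb, 10.5 and 10.3 kb, 2.70 and 4.65 kb, and 0 in the same order (limma adjusted p = 6.89e-05). Around domain 238, the region on chr7:140214987-140230468 had 9.31 and 11.9 kb, 15.0 and 14.0 kb, 2.22 and 3.94 kb, and 0 (limma adjusted p = 6.51e-05). In each of these 3 regions the ISC libraries lay between the embryonic ones and ENT. Choosing long embryonic peaks and then falls from ISC to ENT favours this order, so nothing is read from it.

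The 3 named rises in ENT were small in covered length. Around domain 120, the region on chr17:14302456-14316890 had 14.0 and 14.4 kb in E12.5, 13.7 and 11.6 kb in E14.5, 0 and 0.353 kb in ISC, and 0.801 and 1.06 kb in ENT (limma adjusted p = 0.00532). ENT was thus above ISC but had far less than the embryonic libraries. Around domain 140, the region on chr18:47484137-47504789 had 8.44 and 9.99 kb in ISC and 11.4 and 10.8 kb in ENT (limma adjusted p = 0.00983). Around domain 73, the region on chr4:144480433-144496963 had 11.6 and 14.2 kb in ISC and 13.9 and 14.7 kb in ENT (limma adjusted p = 0.0109), and these overlap before scaling. Domains 140 and 73 were not called without scaling or without ENT replicate 1, and domain 73 also not without ENT replicate 2 or ISC replicate 2.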

How the data were processed

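The submitters' processing notes name MACS2, SAMtools 1.2, Bowtie 1.1.2 and bcl2fastq 1.8.4, and the build mm9. Per the file headers, MACS 2.1.0.20140616 called peaks in each library against its own input at a q-value of 0.05, with 1 tag kept per position. The deposited lists hold each peak's position and length, its fold enrichment (a ratio to local background), its pileup (a coverage signal) and its p-value and q-value as −log10. Each score belongs to the authors' own list and was used within that list alone. Read counts were not used here, so precision rests on the 2 libraries per group. No p-value covers more than the spread between these libraries.

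Covered length, domains and merged regions were computed in Python 3.11.15 (pandas 2.3.3, numpy 2.4.6). Tests used limma 3.58.1 in R 4.3.3 (4 group means, eBayes with trend and robust). The scripts were tested on simulated data. A fold depends on the added 500 bp. Domains named are, by rule, the 3 longest in each group, the 3 longest of each clear pattern, the 3 longest resting on 1 library and the 3 largest non-overlapping changes per direction and comparison. Exceptions are named as such. The members, rules and lists were chosen with earlier results of these data known. The gene table supplied is on GRCm38.p6, so no gene names or sequences are given and the planned markers were not read. Alternatives included other length minimums, added lengths, scaling and filters, and leaving out each library. The description without ISC replicate 2 was added after seeing the data.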

Additional observations from a re-analysis of the deposited data

Results flagged for a closer look

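Among the 4 adult libraries, ISC replicate 2 stood apart in its number of peaks of 10 kb or more: it had 342, and the other 3 had 85, 53 and 41. By Dixon's criterion the gap to the next library was larger than a group of this size should show. Chance alone marks about 1 in 20 groups, and the 4 libraries are of 2 cell types.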

How the results depend on the processing

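The number of domains was 847 with a minimum of 8000 bp, 91 with 15000 bp, 200 from the 50 longest peaks of each library, 1263 when peaks within 1 kb were joined first, and 241 to 431 when 1 library was left out. The share covered in the replicate ran from 89.6 to 100% over the single choosing libraries. With 8000 bp, 54 regions were higher and 68 lower in ENT against ISC, 189 and 12 at E14.5 against E12.5, and 51 and 73 in ISC against E14.5. With the 50 longest peaks, 12 were higher in ENT, and 24 were higher and 2 lower at E14.5. Without scaling, 1 was higher and 78 lower in ENT, and 1 was lower at E14.5. Fitting only the 2 groups compared gave 9 higher in ENT and 7 higher in ISC. Leaving out a library gave 5 to 35 higher and 16 to 29 lower in ENT, 32 to 111 higher and 0 to 6 lower at E14.5, and 5 to 13 higher and 9 to 36 lower in ISC. A group left with 1 library was assumed to vary like the others. Fewer domains and fewer libraries lower counts of calls by construction, and the cause of the other shifts was not tested.

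Replicate numbers are shared across groups, but no label says that they pair libraries. Deviations of same-numbered libraries correlated at -0.14 to 0.13 over the 6 pairs of groups (53123 regions). With the replicate number as a block, 17 of 157 were higher and 22 lower in ENT, against 13.5 and 20.6% of all regions. At E14.5 it was 76 and 3 of 360, against 12.9 and 10.2%. In ISC it was 10 and 31 of 139, against 15.3 and 18.6%. Of 306 values of the named regions under these settings, 285 kept their direction and call, 21 lost the call (largest adjusted p 0.397, limma) and 0 reversed. Among these settings, the lower minimum length and the longest peaks of each library changed only which domains were chosen. They left every value of a named region as in the main fit. Such values are among the 285 by construction, so that number overstates how well the calls held. The tags behind single regions were not analysed here, so what depth limits cannot be given per region.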
